A study of Mus musculus with 24 samples.

Results

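The change over the full age span of the disease model was followed in the cerebral cortex of APP/PS1 mice, as 3 libraries at 9 months against 3 at 1 month. These 6 libraries were chosen by genotype and age from the labels, out of 24 in the series, and all listed miRNA names were considered. APP/PS1 mice carry transgenes of mutant human amyloid precursor protein and mutant presenilin 1 and deposit amyloid in the brain as they grow older. The labels give the genotype only as APP/PS1 on strain C57BL/6, with neither alleles nor promoter named. Each library is 1 mouse, and an age group held 2 females and 1 male, with the sex of each library not labelled. WT mice of the same strain at 1 and 9 months, again 3 libraries each, served as the comparison for ageing without the transgenes, and libraries at 3 and 6 months are used for levels in between. Libraries are labelled brain as to tissue, while the title of the series names the cortex.

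A miRNA is cut from a hairpin precursor as a short strand from its 5p or its 3p arm and guides Argonaute proteins to transcripts that pair with its seed, bases 2 to 8 of the strand. miRNAs that share a seed can act on the same transcripts, and miRNAs of 1 cluster are made from 1 primary transcript. In the cortex, miR-124 and miR-9 mark neurons, miR-142 and miR-223 come from microglia and blood leukocytes, and miR-144 and miR-451a from red blood cells. In bulk tissue, fewer cells of a type and less RNA per cell cannot be told apart.

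The 6 libraries held between 3888926 and 6829622 deposited counts. Levels are given below as CPM, the counts brought to a common library size with TMM factors, and the neuronal miR-124-3p stood highest, between 152186 and 195975 CPM at 1 month and between 175356 and 191407 at 9 months. Of 1927 listed names 433 had enough counts to be tested. Names are those of mature strands, and 15 sets of tested names had identical counts in all 24 libraries, so that 433 names were at most 416 distinct measurements. Differences are log2 fold changes from edgeR's quasi-likelihood test, and a name passed when its p, adjusted over all 433 names by Benjamini and Hochberg, was 0.05 or less.

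The strands on which the results turn are shown here as RefSeq gives them for GRCm38.p6, which held 358 of the 433 tested names and 42 of the 63 that passed. The seed is in capitals, and each strand is written 5′ to 3′. The first set is the miR-29 family, shown because its 3 strands share the seed AGCACCA and all rose. miR-29a-3p and miR-29c-3p differ by 1 base, so reads of one could be counted for the other.
miR-29a-3p: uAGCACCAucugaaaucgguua
miR-29b-3p: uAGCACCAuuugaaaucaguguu
miR-29c-3p: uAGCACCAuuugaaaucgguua

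The next set comes from the imprinted Dlk1-Dio3 locus and is shown because these strands, made from 1 region of chromosome 12, fell together while no seed is shared between them.
miR-412-5p: uGGUCGACcagcuggaaaguaau
miR-409-5p: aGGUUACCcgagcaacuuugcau
miR-1197-3p: uAGGACACauggucuacuucu
miR-1193-3p: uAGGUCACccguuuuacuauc
miR-494-3p: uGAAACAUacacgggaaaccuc
miR-337-5p: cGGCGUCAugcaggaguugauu

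The strands of red blood cells, which fell, are shown with the passing immune strands, of which miR-150-3p fell and the others rose.
miR-144-5p: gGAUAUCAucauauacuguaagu
miR-144-3p: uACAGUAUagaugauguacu
miR-451a: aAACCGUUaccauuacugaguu
miR-142a-5p: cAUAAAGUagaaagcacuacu
miR-142a-3p: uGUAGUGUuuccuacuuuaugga
miR-155-5p: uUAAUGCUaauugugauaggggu
miR-223-3p: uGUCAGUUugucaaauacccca
miR-150-3p: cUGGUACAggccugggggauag

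The last set holds miR-10a-5p and miR-152-3p, each followed by a relative of the same seed that did not pass, and miR-211-5p and miR-690, whose values set single ages or libraries apart. miR-10a-5p and miR-10b-5p differ by 1 base.
miR-10a-5p: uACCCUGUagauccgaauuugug
miR-10b-5p: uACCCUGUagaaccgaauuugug
miR-152-3p: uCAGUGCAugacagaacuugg
miR-148a-3p: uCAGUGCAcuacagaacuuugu
miR-211-5p: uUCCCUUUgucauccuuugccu
miR-690: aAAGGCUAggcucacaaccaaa

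Between 1 and 9 months 63 of the 433 names passed, 14.5% of those tested, with 31 higher (7.16%) and 32 lower (7.39%) at 9 months. Of the 32 lower names, 29 belonged to the Dlk1-Dio3 locus (12), to the rodent cluster in an intron of Sfmbt2 (12) or to the miRNAs of red blood cells (5). The others were miR-18a-5p of the miR-17-92 cluster, miR-212-5p and miR-150-3p. The 31 higher names were less alike. They held the miR-29 strands, 4 immune miRNAs and 19 names in none of the lists considered.

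All 63 names had 9-month libraries that lay entirely above or below the 1-month libraries, which was so of 33.7% of all tested names. Among the 63, 14 rose and 11 fell by at least 1 on the log2 scale, and 12 changed by less than 0.5. Counting names with identical counts once, the 63 were at most 57 distinct measurements, since names with nearly identical counts were still counted apart. The number passing rested on single libraries, since it was 27 without APP/PS1 1-month replicate 2, 31 without 9-month replicate 1, 36 without 9-month replicate 2 and 39 without 1-month replicate 3. Of the 63 calls, 22 were kept in each of the 6 fits that left out 1 library. Scaling by library totals in place of TMM moved the median of all tested names from 0.04 to -0.08 and gave 24 higher and 46 lower names.

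**Figure D1:**
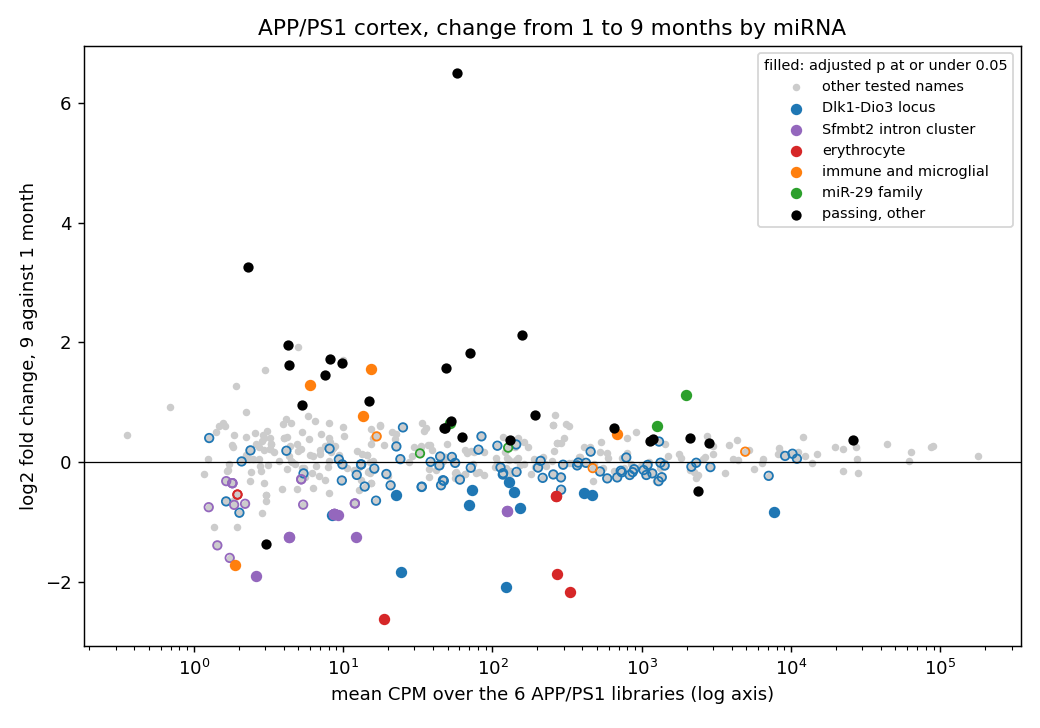
Log2 fold change from 1 to 9 months in APP/PS1 cortex (vertical axis) against the mean CPM over the 6 libraries (horizontal log axis), with tested names as grey dots. Filled points in colour or black had an adjusted p of 0.05 or less, and open points are members of the coloured lists that did not pass. The filled Dlk1-Dio3, Sfmbt2 and erythrocyte points lie below 0, the 3 filled miR-29 points above it, and the highest point is miR-215-5p at 6.50.

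The miR-29 strands gave the clearest rise. They are known to target collagen and Bace1 transcripts and to increase as the brain matures. miR-29b-3p stood at 1202, 1246 and 1263 CPM in the 1-month libraries and at 2594, 2759 and 2717 CPM in the 9-month libraries. The libraries within each age were close together and the ages far apart. This was a log2 fold change of 1.12 (SE 0.10, edgeR adjusted p = 1.25e-07). miR-29c-3p went from 1059, 994.2 and 949.9 CPM to 1494, 1539 and 1509 CPM, a log2 fold change of 0.60 (SE 0.09, edgeR adjusted p = 9.11e-05). miR-29a-3p, the least counted of the family here, went from 41.6, 43.2 and 36.1 CPM to 62.9, 68.4 and 58.9 CPM, a log2 fold change of 0.65 (SE 0.11, edgeR adjusted p = 0.000303). All 3 calls were kept in each fit that left out a library, and that of miR-29a-3p was lost without a filter on low counts. The 2 opposite arms that were tested, miR-29b-2-5p (log2 fold change 0.14) and miR-29c-5p (0.24), did not pass.

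The precursors lie in 2 pairs. Mir29a (chr6:31062660-31062747) and Mir29b-1 (chr6:31063023-31063093) are on the minus strand of GRCm38.p6, the second within the noncoding RNA Gm27019. Mir29b-2 (chr1:195037040-195037120) and Mir29c (chr1:195037547-195037634) are on the plus strand within exons of the noncoding transcript A330023F24Rik and opposite an exon of Cd46. Since miR-29b-3p is made from both pairs, its counts do not tell which pair rose.

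Seeds could be compared only among the 358 tested names with a RefSeq sequence, which held 42 of the 63 names that passed. Left out were the Sfmbt2 strands, miR-30b-5p, miR-320-3p, miR-598-3p, miR-1957a, miR-3470a, miR-486a-5p, miR-486b-5p and the predicted names. Within those 358, of which 42 passed, 35 seed families had at least 2 distinct members, and 9 of them had a member that passed. In 8 of the 9 exactly 1 member passed, and in the miR-29 family all 3 did. miR-152-3p, of the miR-148 seed, rose from 511.3, 552.0 and 511.6 CPM to 745.2, 876.4 and 696.6 CPM (log2 fold change 0.56, SE 0.11, edgeR adjusted p = 0.00172). Its relatives miR-148a-3p and miR-148b-3p had log2 fold changes of -0.25 and -0.18 and did not pass. miR-100-5p, which differs from miR-99a-5p by 1 base, had a log2 fold change of 0.36 (SE 0.09, edgeR adjusted p = 0.00938), beside 0.25 for miR-99a-5p and -0.16 for miR-99b-5p, neither of which passed. Of 9 tested members of the let-7 family, which curbs growth and marks differentiated cells, 1 rose (11.1%), beside 7.16% higher among all tested names. This was let-7b-5p (log2 fold change 0.31, edgeR adjusted p = 0.0422), which did not pass in 5 of the 6 fits that each omitted 1 library.

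Several other miRNAs rose with no overlap between the ages. miR-203-3p, best known from skin, went from 136.1, 161.0 and 127.7 CPM to 267.4, 240.4 and 225.5 CPM (log2 fold change 0.79, SE 0.14, edgeR adjusted p = 0.000518). miR-338-3p, from an intron of Aatk and enriched in oligodendrocytes, went from 1.34, 2.90 and 2.27 CPM to 7.33, 6.20 and 5.97 CPM (log2 fold change 1.62, SE 0.30, edgeR adjusted p = 0.000828). In WT over the same ages miR-338-3p passed as higher too (log2 fold change 1.65). It was the 1 oligodendrocyte miRNA of 7 listed that could be tested. The defining miR-219a-5p and miR-219a-2-3p had at most 2 and 3 counts in any of the 24 libraries. miR-133b-3p, a miRNA of muscle, went from 10.9, 8.93 and 9.77 CPM to 20.95, 23.0 and 15.9 CPM (log2 fold change 1.01, SE 0.23, edgeR adjusted p = 0.00417).

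A further group of moderate rises kept the same separation of ages. miR-33-5p, from an intron of Srebf2 and a regulator of cholesterol export, had a log2 fold change of 0.68 (SE 0.20, edgeR adjusted p = 0.0341). miR-1224-5p had 0.57 with an SE of 0.14, together with a predicted miRNA whose counts were between 0.956 and 1.0 times its own in every library. miR-574-5p had 0.95 (SE 0.23), miR-30b-5p 0.42, miR-26b-5p 0.39, miR-320-3p 0.36 and miR-598-3p 0.34. Reports name 15 of the tested miRNAs as regulators of App or Bace1, and 4 of these rose and 0 fell, beside 7.16% higher and 7.39% lower among all tested names. They were the 3 miR-29 strands already described and miR-101b-3p (log2 fold change 0.38, SE 0.11, edgeR adjusted p = 0.0212), which did not pass in 4 of the 6 fits that each omitted 1 library. The median over the 15 was 0.38, beside 0.04 over all tested names. All 4 also passed as higher in WT over the same ages, where 5 of the 15 rose and 2 fell. The WT median over the 15 was 0.30, and among all tested names in WT 7.16% were higher and 10.4% lower.

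**Figure D2:**
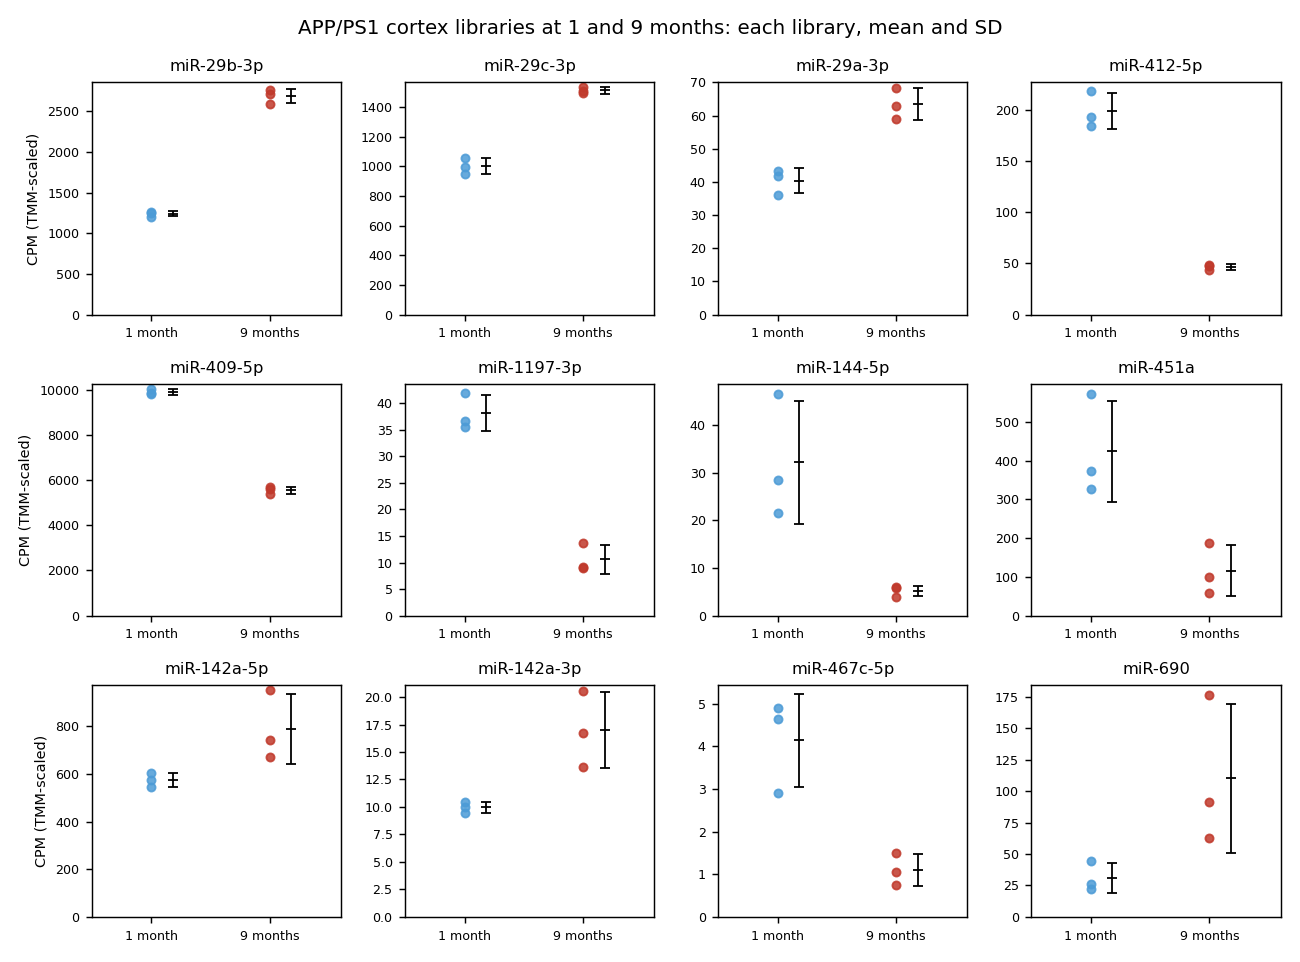
CPM of 12 miRNAs in each APP/PS1 library at 1 month (blue) and 9 months (red), with the mean and SD of 3 libraries in black beside the points. In each panel the ages do not overlap, and the spread is widest in miR-144-5p and miR-451a at 1 month and in miR-690 at 9 months.

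The miRNAs of the Dlk1-Dio3 locus, a maternally expressed imprinted cluster of neurons and embryonic tissues, gave 12 of the 32 falling names, as many as the Sfmbt2 cluster. Of 90 tested members 12 fell and 0 rose, 13.3% against a background of 7.39% lower, and 67 of the 90 had log2 fold changes below 0, beside 200 of all 433. The median over the 90 was -0.16, beside 0.04 over all names. Their summed level went from between 79171 and 80569 CPM at 1 month to between 73063 and 74309 CPM at 9 months, with no overlap. RefSeq placed 83 of the 90 names on 48 precursors between chr12:109563692-109747960 of GRCm38.p6. The count of members that fell lay between 8 and 13 in the fits that left out 1 library. In WT over the same ages 29 of the 90 fell and 2 rose, with a median of -0.27. Among all tested names in WT, 10.4% were lower and 7.16% higher.

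miR-412-5p showed the largest fall in the locus, from 217.9, 192.6 and 184.4 CPM to 46.9, 43.4 and 48.7 CPM (log2 fold change -2.10, SE 0.19, edgeR adjusted p = 1.25e-07). miR-409-5p, whose precursor lies beside that of miR-412 in the noncoding gene Mirg, was the most abundant strand to fall, from 9816, 10038 and 9838 CPM to 5678, 5611 and 5375 CPM (log2 fold change -0.83, SE 0.10, edgeR adjusted p = 3.63e-06). Both had 3 libraries per age within a narrow range. miR-1197-3p went from 36.7, 42.0 and 35.6 CPM to 8.91, 9.17 and 13.7 CPM (log2 fold change -1.84, SE 0.30, edgeR adjusted p = 0.000241).

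Smaller falls followed the same separation. miR-1193-3p fell by 0.77 on the log2 scale (SE 0.12), with a log2 fold change for miR-494-3p of -0.73 (SE 0.12), miR-337-5p of -0.52 (SE 0.09) and miR-541-3p of -0.50 (SE 0.11). miR-543-5p (-0.90), miR-493-5p (-0.56), miR-323-3p (-0.55), miR-433-5p (-0.48), from a precursor opposite an exon of Rtl1, and miR-673-5p (-0.34) completed the 12.

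Opposite arms of a precursor were compared as a description. In RefSeq, 37 precursors of the locus had both arms tested, and 10 of these had an arm that passed, in 0 cases both. Some opposite arms had values close to the arm that passed. miR-673-3p had a log2 fold change of -0.31 beside -0.34 for the 5p arm, miR-1193-5p -0.66 beside -0.77 for the 3p arm, and miR-337-3p -0.39 beside -0.52 for the 5p arm. miR-323-5p had -0.31 beside -0.55, miR-433-3p -0.22 beside -0.48, and miR-541-5p -0.23 beside -0.50, at an edgeR adjusted p of 0.0504. Others lay further apart. miR-412-3p, at 22.4, 21.5 and 18.7 CPM and then 18.3, 15.1 and 20.9 CPM, had -0.20 (edgeR adjusted p = 0.562) beside -2.10 for the 5p arm. For Mir409 the 3p arm had -0.26 beside -0.83, for Mir543 -0.06 beside -0.90, and for Mir493 0.19 beside -0.56. The arm that passed was the less abundant arm in 3 of the 10 and the more abundant in the others, and 7 of the 12 names that fell were 5p arms. The difference between arms was not tested.

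**Figure D3:**
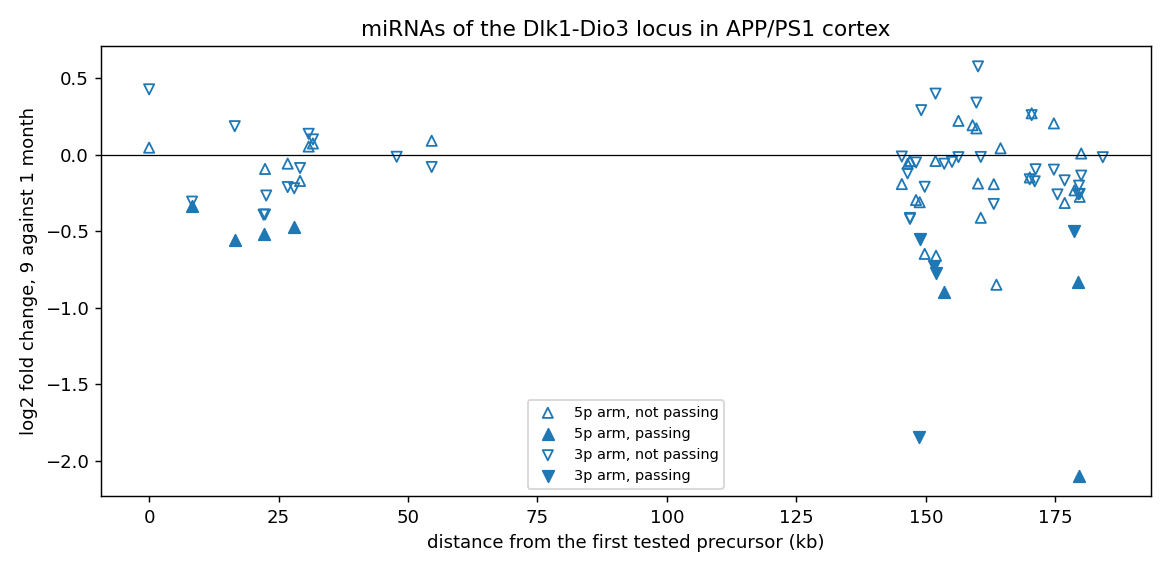
Log2 fold change from 1 to 9 months in APP/PS1 cortex for tested Dlk1-Dio3 miRNAs against the distance in kb of their precursor from the first tested one, with 5p arms as upward and 3p arms as downward triangles, filled where they passed. The passing arms lie in both groups of precursors, and the lowest are miR-412-5p at -2.10 and miR-1197-3p at -1.84.

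The cluster in Sfmbt2, a rodent cluster of many near-identical precursors known from the placenta and trophoblast, moved in 1 direction. All 26 tested members had log2 fold changes below 0, between -1.91 and -0.29 with a median of -0.81. Of the 26, 12 fell (46.2%), beside 7.39% lower among all tested names. The 26 names were at most 17 distinct measurements, because counts are shared between copies, so the names are not independent. In GENCODE M21 (GRCm38), 52 precursor genes matched these names by symbol, all inside Sfmbt2 on its strand, between chr2:10467229-10517164.

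miR-467a-5p, identical in counts to miR-467b-5p and the most counted strand that fell, went from 138.3, 155.0 and 184.1 CPM to 85.4, 85.8 and 100.2 CPM (log2 fold change -0.81, SE 0.23, edgeR adjusted p = 0.024). miR-467c-5p went from 4.63, 2.90 and 4.89 CPM to 1.05, 1.49 and 0.746 CPM (log2 fold change -1.91, SE 0.41, edgeR adjusted p = 0.0036). miR-466d-3p went from 10.9, 20.0 and 20.9 CPM to 6.55, 6.44 and 8.45 CPM (log2 fold change -1.26, SE 0.30, edgeR adjusted p = 0.00679). These strands were of low level, and 1-month replicate 1 had the lowest 1-month value for miR-467a-5p and miR-466d-3p. The 5 names miR-466a-3p, miR-466b-3p, miR-466c-3p, miR-466e-3p and miR-466p-3p, nearly or fully identical in counts, each had -0.87. The count of 12 became 2 without 1-month replicate 2 or 9-month replicate 1, and 4 without 1-month replicate 3 or 9-month replicate 2 or in a fit of the 6 libraries alone. It became 7 with each set of identical names counted once.

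The miRNAs of red blood cells included the 2 largest falls of all passing names. Of 7 tested names, 5 distinct measurements, 5 fell and 0 rose (71.4%), beside 7.39% lower among all tested names. The median over the 7 was -0.57. miR-144-5p went from 46.6, 28.5 and 21.5 CPM to 3.93, 5.95 and 5.72 CPM (log2 fold change -2.63, SE 0.34, edgeR adjusted p = 1.97e-05). miR-144-3p went from 741.2, 467.8 and 408.1 CPM to 49.0, 128.1 and 180.2 CPM (log2 fold change -2.18, SE 0.37, edgeR adjusted p = 0.00039). miR-451a, cut by Argonaute 2 without Dicer, went from 572.6, 373.4 and 326.8 CPM to 59.7, 100.9 and 187.4 CPM (log2 fold change -1.87, SE 0.34, edgeR adjusted p = 0.000676). Mir144 (chr11:78073005-78073070) and Mir451a (chr11:78073170-78073241) are neighbours with no other gene annotated over them.

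For miR-144-3p and miR-451a, the order of the 3 libraries at each age was the same, with 1-month replicate 1 highest and 9-month replicate 1 lowest. miR-486a-5p, counted identically to miR-486b-5p, went from 379.2, 288.2 and 290.9 CPM to 185.4, 221.3 and 239.1 CPM (log2 fold change -0.57, SE 0.18, edgeR adjusted p = 0.045). It did not pass in 5 of the 6 fits that each omitted 1 library, so that the list's count was then 3. The 3p arms of miR-486a and miR-486b had -0.55 and did not pass. The summed level of the list lay between 1344 and 2123 CPM at 1 month and between 485.6 and 854.2 CPM at 9 months. The blood content of each sample was not labelled, and its part in these falls was not tested.

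Of the 8 tested immune and microglial miRNAs, 4 rose and 1 fell, beside 7.16% higher and 7.39% lower among all tested names. miR-142a, a miRNA of all blood leukocytes and of microglia, rose on both arms. miR-142a-5p went from 602.3, 573.3 and 544.2 CPM to 742.6, 954.2 and 672.7 CPM (log2 fold change 0.46, SE 0.13, edgeR adjusted p = 0.0197). miR-142a-3p went from 9.999, 9.41 and 10.5 CPM to 16.8, 20.6 and 13.7 CPM (log2 fold change 0.77, SE 0.22, edgeR adjusted p = 0.0222). Both arms were highest in 9-month replicate 2. Their precursor Mir142 (chr11:87756864-87756927) lies in an intron of Mir142hg. Of 125 precursors that RefSeq gives with both arms tested, both arms passed in 2, Mir142 and Mir144, each in 1 direction. Both arms of miR-467a, which is not among the 125, passed as well.

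miR-155-5p, which is induced by inflammatory signals, went from 2.69, 3.38 and 4.36 CPM to 9.69, 10.9 and 4.97 CPM (log2 fold change 1.29, SE 0.36, edgeR adjusted p = 0.0212). miR-223-3p, the myeloid miRNA, went from 6.27, 7.97 and 9.25 CPM to 9.95, 47.8 and 10.9 CPM (log2 fold change 1.55, SE 0.43, edgeR adjusted p = 0.0212). Its rise rested on 9-month replicate 2, without which the log2 fold change was 0.40. miR-150-3p, of lymphocytes, fell from 2.69, 4.34 and 1.74 CPM to 1.31, 0.744 and 0.497 CPM (log2 fold change -1.72, SE 0.55, edgeR adjusted p = 0.0431). This fall did not pass without 1-month replicate 1 or 2, without 9-month replicate 1, 2 or 3, or in a fit of the 6 libraries alone. The opposite arm miR-150-5p was tested and did not pass. miR-146a-5p, a brake on inflammatory signalling, had 0.43 (edgeR adjusted p = 0.112), and its 9-month libraries lay above its 1-month libraries. The count of 4 rising members became 0 without 1-month replicate 2 or 9-month replicate 2, 1 without 1-month replicate 1 or in a fit of the 6 libraries alone, and 2 without 1-month replicate 3 or 9-month replicate 1. The median over the 8 was 0.44.

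Some miRNAs with the largest rises belong to tissues next to the cortex or outside it. miR-211-5p, made in choroid plexus and pigmented epithelium from an intron of Trpm1, went from 4.63, 2.41 and 4.19 CPM to 18.1, 10.9 and 8.95 CPM (log2 fold change 1.72, SE 0.37, edgeR adjusted p = 0.00395). It was the 1 member of 3 tested choroid plexus miRNAs that passed, beside 7.16% higher among all tested names. miR-204-5p had 0.63 with an adjusted p of 0.128 in edgeR's test. miR-10a-5p, a Hox cluster miRNA of hindbrain and spinal cord, went from 68.3, 60.6 and 47.3 CPM to 324.0, 281.8 and 162.6 CPM (log2 fold change 2.12, SE 0.70, edgeR adjusted p = 0.0459). It did not pass in 5 of the 6 fits that each omitted 1 library, and miR-10b-5p, which differs from it by 1 base, had -0.06.

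miR-215-5p, of intestine and kidney, had 1.79, 0.724 and 1.05 CPM at 1 month and 333.7, 5.95 and 5.47 CPM at 9 months. Its log2 fold change of 6.50 (SE 1.19, edgeR adjusted p = 0.000676) came mostly from 9-month replicate 1, without which it was 2.16, and it did not pass in DESeq2 or in a fit of the 6 libraries alone. miR-690, from a precursor in an intron of Fgf12 (chr16:28599935-28600043), went from 44.3, 25.8 and 22.5 CPM to 176.8, 62.5 and 90.99 CPM (log2 fold change 1.82, SE 0.41, edgeR adjusted p = 0.00417). Without 9-month replicate 1 its call was lost, at a log2 fold change of 1.29. A predicted miRNA with 0.583 to 0.876 times the counts of miR-690 in every library rose by 1.56. miR-1957a (1.96), miR-3470a (1.65), miR-3470b (1.45) and miR-6481 (3.25) rose as well. miR-6481 rested on few counts, 2, 0 and 5 at 1 month and 22, 20 and 8 at 9 months.

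The levels of miR-690 and these names did not climb steadily with age. In APP/PS1 cortex miR-690 averaged 30.9 CPM at 1 month, 19.2 at 3 months, 278.3 at 6 months and 110.1 at 9 months. In WT cortex it averaged 586.1 CPM at 6 months and 22.7 at 9 months. For miR-3470a the APP/PS1 means were 4.69, 3.44, 46.1 and 14.8 CPM.

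Other cell types are given by the summed CPM of their listed miRNAs, as the range over 3 libraries at 1 and at 9 months. The choroid plexus miRNAs summed to between 225.3 and 278.8 and then to between 327.9 and 471.5. Of the 6 muscle and liver miRNAs 1 rose, beside 7.16% higher among all tested names. They summed to between 307.4 and 374.7 and then to between 449.7 and 691.5. The ages did not overlap in this list or in that of the choroid plexus. The mesenchymal and meningeal miRNAs, of which 0 of 5 passed, summed to between 673.7 and 694.2 and then to between 690.3 and 1633, where the highest library was 9-month replicate 2, with miR-199a-3p at 482.3 CPM against 231.3 and 215.0 in the other 9-month libraries. Without a filter on low counts, or without 9-month replicate 3, miR-199a-5p, miR-199a-3p and its identically counted copy miR-199b-3p rose, and without 9-month replicate 1 the latter pair did. The endothelial and smooth muscle miRNAs (0 of 4 passing) and those of hypothalamus and pituitary (0 of 2) had ages that overlapped. Beside these lists and the mesenchymal one, 14.5% of all tested names passed. The part of such tissue in the changes above was not tested.

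Of the neuron-enriched miRNAs none passed with TMM scaling, and with library totals miR-128-3p fell by 0.30 on the log2 scale (edgeR adjusted p = 0.0296). Over 17 tested members, 0 rose and 0 fell, beside 7.16% higher and 7.39% lower among all tested names. They ranged from -0.19 to 0.36 on the log2 scale with a median of 0.04, the same as over all names. Their summed level lay between 260312 and 325207 CPM at 1 month and between 280065 and 311197 CPM at 9 months. Of 6 miRNAs made on neuronal activity 1 fell, beside 7.39% lower among all tested names. This was miR-212-5p, from 3032, 2812 and 2480 CPM to 1769, 2218 and 1946 CPM (log2 fold change -0.49, SE 0.15, edgeR adjusted p = 0.0422). It did not pass in 4 of the 6 fits that each omitted 1 library. Its partner arm miR-212-3p had -0.32 (edgeR adjusted p = 0.109) with ages that did not overlap, and miR-132-3p, from the same cluster, had -0.14 (edgeR adjusted p = 0.698) with ages that did. Of 8 tested miRNAs of the miR-17-92 cluster, which drives proliferation, 1 fell (12.5%), beside 7.39% lower among all tested names. The strand was miR-18a-5p, which went from 4.92, 3.62 and 4.54 CPM to 2.62, 1.24 and 1.24 CPM (log2 fold change -1.37, SE 0.33, edgeR adjusted p = 0.00727). The median over the 8 was -0.20. In WT over the same ages 6 of the 8 miR-17-92 names fell, with a median of -0.69, beside 10.4% lower among all tested names. Of 3 tested members of the miR-34 family, which acts downstream of p53, 0 passed, beside 14.5% of all tested names.

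Of the 13 tested miRNAs often studied in Alzheimer disease, 3 rose and 0 fell (23.1%), beside 7.16% higher and 7.39% lower among all tested names. The 3 were miR-29c-3p, miR-142a-5p and miR-155-5p. That count was 1 without 1-month replicate 2 or 9-month replicate 2, or in a fit of the 6 libraries alone. Besides those named above, miR-206-3p (log2 fold change 0.77), miR-34a-5p (0.40), miR-125b-5p (0.17), miR-124-3p (0.09), miR-107-3p (0.08), miR-342-3p (0.03) and miR-9-5p (0.01) did not pass and had ages that overlapped. miR-34a-5p had 184.3, 128.4 and 70.1 CPM at 1 month and 148.2, 235.5 and 122.8 CPM at 9 months. Of the 5 most abundant strands, miR-124-3p, miR-26a-5p (0.27), miR-99a-5p (0.25), miR-125b-5p and miR-9-5p, 0 passed, beside 14.5% of all tested names.

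Between neighbouring ages fewer names passed. From 1 to 3 months 8 did (1.85%), 2 higher (0.462%) and 6 lower (1.39%). From 3 to 6 months 15 did (3.46%), 10 higher (2.31%) and 5 lower (1.15%). From 6 to 9 months 23 did (5.31%), 13 higher (3%) and 10 lower (2.31%). The change from 1 to 9 months is the sum of the steps from 1 to 3, 3 to 6 and 6 to 9 months. For each of the 63 names the largest step in the direction of the whole change was noted as a description. Of the 31 higher names it was the first step for 9, the second for 10 and the last for 12. Of the 32 lower names it was the first for 14, the second for 4 and the last for 14. For the 3 miR-29 strands it was the first step, and miR-29b-3p averaged 1237, 2079, 2432 and 2690 CPM at 1, 3, 6 and 9 months. Of the 12 falling Dlk1-Dio3 names it was the first step for 8 and the second for 4, with miR-412-5p at 198.3, 77.5, 44.9 and 46.3 CPM. For all 5 falling red blood cell names and all 4 rising immune names it was the last. miR-144-5p averaged 32.2, 18.7, 25.1 and 5.20 CPM, and miR-142a-5p averaged 573.3, 508.6, 627.1 and 789.8 CPM. Of the 12 falling Sfmbt2 names it was the first step for 5 and the last for 7.

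**Figure D4:**
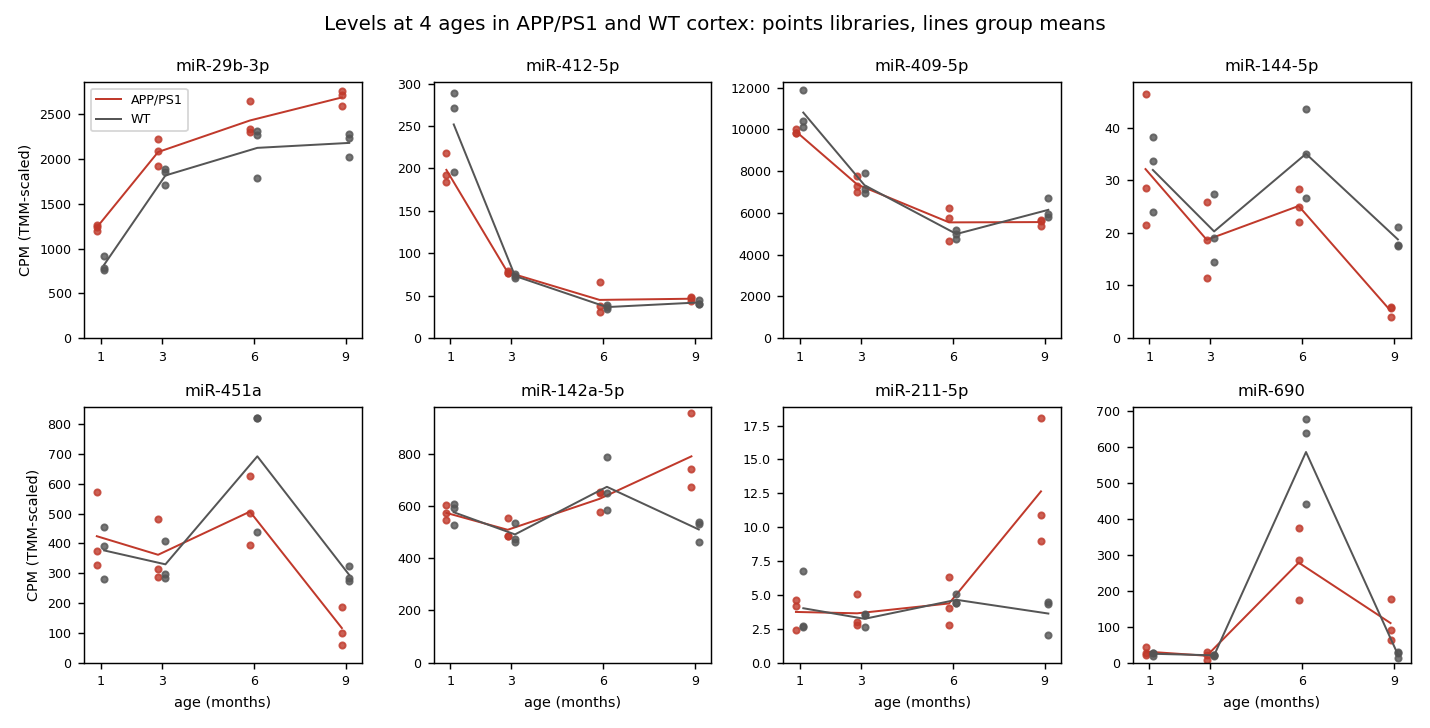
CPM of 8 miRNAs at 1, 3, 6 and 9 months in APP/PS1 (red) and WT (grey) cortex, with 1 point per library and lines through the means of 3 libraries. miR-29b-3p rises and miR-412-5p and miR-409-5p fall in both genotypes with their steepest stretch before 3 months, and miR-29b-3p starts lower in WT at 1 month. miR-144-5p, miR-451a, miR-142a-5p and miR-211-5p part at 9 months, and miR-690 peaks at 6 months.

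The same age span in WT mice shares no library with that in APP/PS1 mice, and there 76 names passed (17.6%), 31 higher and 45 lower (10.4%). In both genotypes 32 names passed, all in the same direction, which is 50.8% of the APP/PS1 calls and 42.1% of the WT calls. They included the 3 miR-29 strands, 11 of the 12 falling Dlk1-Dio3 names and 7 of the 12 falling Sfmbt2 names. The WT log2 fold change was 1.41 for miR-29b-3p (SE 0.10) and -2.59 for miR-412-5p (SE 0.20). None of the red blood cell names and none of the 4 rising immune names of APP/PS1 mice passed in WT, while miR-146b-5p of the immune list rose there (log2 fold change 0.30, SE 0.09, edgeR adjusted p = 0.0267) and had 0.17 in APP/PS1. In WT, miR-144-5p had -0.76 (SE 0.30, edgeR adjusted p = 0.0864), miR-451a -0.35, miR-142a-5p -0.18 and miR-142a-3p -0.44.

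Whether the change differed between the genotypes was tested directly. In edgeR's quasi-likelihood test 0 of 433 names passed, with 48 at an unadjusted p under 0.05, where 21.65 are expected with no difference, and in DESeq2 6 did. The smallest p belonged to miR-144-5p, with a change in APP/PS1 minus that in WT of -1.86 (SE 0.45, edgeR adjusted p = 0.157). miR-142a-3p followed with 1.21 (SE 0.31), and miR-496a-3p of the Dlk1-Dio3 locus with 0.58 (SE 0.16), both at the same adjusted p in edgeR. miR-496a-3p went from 336.8, 319.6 and 284.2 CPM to 278.9, 235.7 and 271.0 CPM in APP/PS1 and did not pass there (log2 fold change -0.26), and it had -0.84 in WT. The 6 names in DESeq2 were these 3 with miR-142a-5p, miR-29c-3p and miR-690.

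Further members of the same groups had differences of like direction that did not pass in edgeR's test of the 433 names. The change in APP/PS1 minus that in WT was -1.51 for miR-144-3p (SE 0.51, edgeR adjusted p = 0.187), -1.52 for miR-451a (SE 0.47, edgeR adjusted p = 0.157) and 0.64 for miR-142a-5p (SE 0.18, edgeR adjusted p = 0.157). It was -0.29 for miR-29b-3p, -0.39 for miR-29c-3p and -0.44 for miR-29a-3p, and the 1-month mean of miR-29b-3p was 1237 CPM in APP/PS1 beside 819.8 CPM in WT. miR-211-5p had 1.86 (SE 0.56) and miR-690 1.95 (SE 0.58), both at an adjusted p of 0.157 in edgeR. Without APP/PS1 9-month replicate 3 the count was 6: both arms of miR-142a, miR-199a-3p with its identically counted copy miR-199b-3p, miR-215-5p and miR-451a. Without a filter on low counts it was 16 in edgeR, among them both arms of miR-144, miR-451a, miR-211-5p and miR-690.

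**Figure D5:**
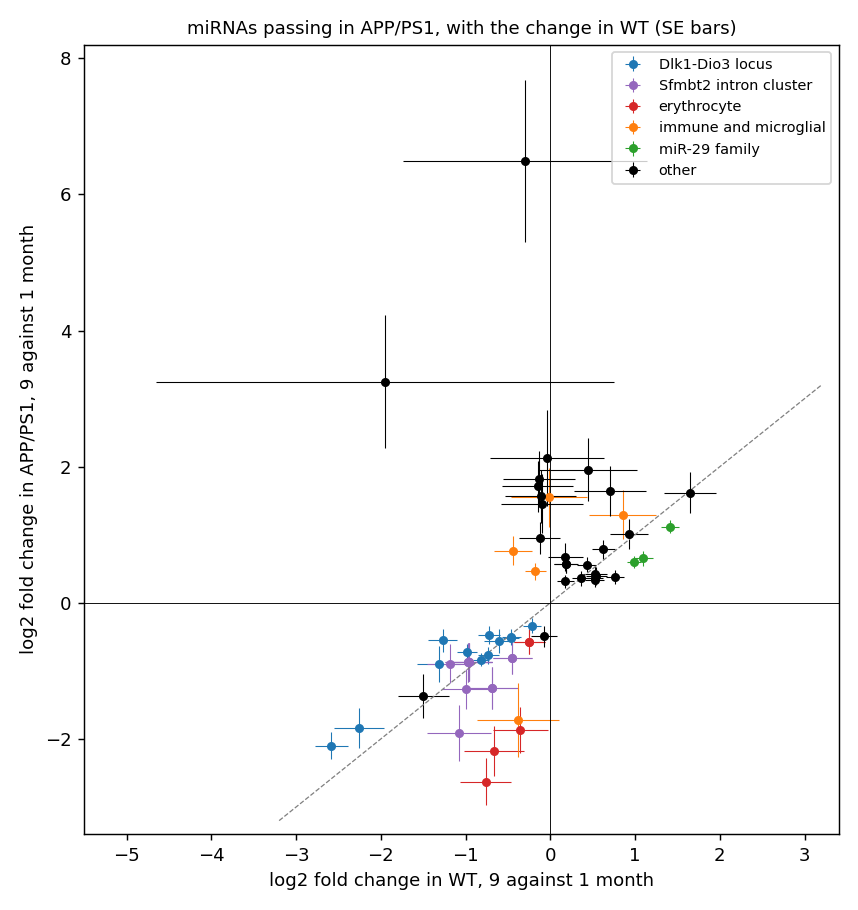
Log2 fold change from 1 to 9 months in APP/PS1 cortex (vertical axis) against that in WT cortex (horizontal axis) for the 63 names that passed in APP/PS1, with bars of 1 SE, and a dashed line where both are equal. Dlk1-Dio3 and miR-29 points lie near the line, 3 erythrocyte points lie below it between -2.63 and -1.87, and 19 names outside the lists are among the points drawn as other.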

How the data were processed

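Small RNA was measured in mouse cortex. The submitters' labels describe Trizol extraction and the TruSeq small RNA kit, with single-end reading on a HiSeq 2500. Their steps were cutadapt 1.14 for adapters (17 to 35 bases kept), Trimmomatic 0.36 for quality (limit 20), BLAST 2.6.0 against rRNA, tRNA, snRNA, snoRNA and repeats, then miRBase 21.0 for known names and miRDeep2 2.0.0.8 for predictions. Counting tool, genome build and handling of reads that match several names: not given in the sources used here. Raw counts for each mature name, unscaled, were deposited.

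Low names were removed by filterByExpr (at least 10 counts, total of at least 15), and those removed held no more than 0.0159% of any library. edgeR 4.0.16 under R 4.3.3 estimated TMM factors and a quasi-likelihood model holding a mean for every one of 8 genotype and age groups, so that all 24 libraries share an estimate of the spread (16 residual and 4.64 prior degrees of freedom, common biological coefficient of variation 18.6%). Each SE is |log2 fold change| over the root of F. P-values, adjusted within a comparison, set each difference of group means against the spread between mice, as estimated over all 24 libraries. Replicates of the groups compared varied beyond counting noise, with chi-square values of 38.4 to 146.5 for each degree of freedom. Alternatives, DESeq2 1.42.0 among them, are in the closing section.

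Members and lists were chosen with earlier results of these data known. Named were, per direction, the 12 smallest p and the 5 largest changes among passing names without overlap (the latter with mean CPM of at least 10), up to 4 passing members of each list, the Alzheimer panel, the 5 most abundant and the 3 smallest p for the genotype difference. Other passing names, opposite arms, relatives of a shared seed and list members that did not pass were added after their values were seen. Overlapping genes are from GENCODE M21 and sequences from RefSeq, both on GRCm38.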

Additional observations from a re-analysis of the deposited data

How the results depend on the processing

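All 37 named miRNAs that passed from 1 to 9 months kept their direction in every alternative run. With size factors by relative log expression 37 still passed, with library totals 35, without a filter 32, in DESeq2 36 (miR-215-5p lost), with the 6 libraries alone 30, with identical names counted once 34, and in fits without 1 library between 25 and 35. The number passing lay between 27 and 56 in the fits that left out 1 library (higher names between 13 and 30, lower names between 14 and 31). With the 6 libraries alone 19 names were higher and 45 passed in all, of which 40 were among the 63.

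Replicate numbers are in the labels with nothing said of pairing. The deviations of same-numbered 1-month and 9-month libraries correlated at 0.11, -0.15 and 0.12, so the numbers were not taken as pairs, and not every library correlated best with its own number. With a replicate block 53 names passed, 28 higher and 25 lower, and miR-10a-5p was lost.

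For the genotype difference the count of 0 became 6 in DESeq2, 16 without a filter and 1 with a replicate block (miR-144-5p), and lay between 0 and 6 in fits without 1 library. Some values near 0 that did not pass turned sign. miR-9-5p had -0.014 with size factors by relative log expression and in DESeq2, -0.12 with library totals, -0.047 without a filter, -0.025 with the 6 libraries alone and -0.048 with identical names counted once, and lay between -0.12 and 0.052 in fits without 1 library. miR-342-3p had -0.093 with library totals, -0.031 without a filter, -0.0072 with the 6 libraries alone and -0.029 with identical names counted once, and lay between -0.16 and 0.074 in fits without 1 library. With library totals miR-107-3p had -0.053 and miR-124-3p -0.028, and miR-124-3p lay between -0.0090 and 0.15 in fits without 1 library. The causes were not tested. Strands under about 10 CPM rest on few counts, and that limits their precision.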
